A study of Glycine max with 12 samples.

Results

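Roots were set against nodules in soybean that had received 5 mM nitrate for 24 h, to describe how the organs differed in gene expression once nitrate was present. The comparison used 6 of the 12 arrays of the series: 3 arrays of nitrate-treated roots and 3 arrays of nitrate-treated nodules. Of the 42748 probesets on the array that are not controls, 35657 were tested, namely those that the scanner software marked as well above background on each of the 3 arrays of either organ or both. All plants were of the cultivar Nourin No.2 and carried nodules formed with Bradyrhizobium diazoefficiens USDA110. They were sown in vermiculite and then moved to a nutrient solution free of nitrogen, where they grew until 19 days after planting. Nitrate-treated plants then received 5 mM nitrate, while control plants stayed without nitrogen, both for 24 h. The control plants gave 3 root arrays and 3 nodule arrays, which are used here only to show where the organ difference under nitrate was not the one found without it. Roots were the lower part of the root system, which bore no visible nodules, and nodules were those wider than 3 mm on the upper part. The root tissue was therefore not the tissue to which the nodules were attached. Each RNA sample was pooled from 3 plants and hybridized, with a single dye, to 1 array. In such mixed tissue, fewer cells of a type and less RNA per cell cannot be told apart.

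Nodules house rhizobia that fix dinitrogen into ammonium. In soybean nodules the plant cells turn much of this nitrogen into purines and then into ureides, which are exported to the shoot. Roots take up nitrate through membrane carriers and reduce it to nitrite with nitrate reductase and to ammonium with nitrite reductase. Glutamine synthetase and glutamate synthase then bring the ammonium into amino acids, and asparagine is a main form in which nitrogen from nitrate leaves the root. Nitrate is known as an inhibitor of nodule growth and nitrogen fixation in legumes. The scanner files name probesets only by sequence identifier. Descriptions were at hand for 2964 probesets, each changed over 2-fold by nitrate in roots or nodules in the study's own lists. These lists were drawn up on the same arrays, so the direction of a described probeset is not independent evidence, and counts over described probesets speak only for genes that respond to nitrate in at least 1 organ. The list of probesets lower in nodules after nitrate was at hand only in part, with the larger changes, so genes that fell less in nodules have no description here. Many descriptions name the nearest known sequence, often of another plant, and several probesets can share 1 description.

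Values are scaled signals, that is the background-adjusted intensity of a probeset after each array was brought to a mean of 2500. A log2 ratio is the mean log2 signal of roots minus that of nodules, so positive values mean higher in roots. A call required an adjusted p under 0.05 (limma, Benjamini-Hochberg over all probesets of the fit) and a ratio above 2-fold. Arrays of nitrate-treated roots correlated with each other at r = 0.973 to 0.987 over the log2 signals of probesets, and arrays of nitrate-treated nodules at 0.991 to 0.995, while a root array and a nodule array correlated at 0.769 to 0.807. The median SD of a probeset on the log2 scale was 0.21 among nitrate-treated roots and 0.14 among nitrate-treated nodules. The share of probesets well above background lay between 79.55% and 82.55% on root arrays and between 79.95% and 83.83% on nodule arrays. All nitrate-treated root arrays shared slide 1, whereas nitrate-treated nodule arrays 1 and 2 lay on slide 2 and array 3 on slide 3. No slide held both organs under nitrate, so organ and slide cannot be told apart within these 6 arrays, and a block for slide could be fitted only once the control arrays were added.

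The organs differed in a large part of the genes on the array. Under nitrate 7910 of the 35657 probesets tested (22.2%) were higher in roots and 8424 (23.6%) were higher in nodules, in all 45.8%. Above 4-fold, the counts were 3949 in roots (11.1%) and 3873 in nodules (10.9%). The median log2 ratio over all probesets was -0.08, and the 5th and 95th percentiles were -3.03 and 3.25. Ratios over 16-fold were found for 1092 probesets in the direction of roots and for 860 in the direction of nodules. The 3 root arrays lay on one side of the 3 nodule arrays for 27658 probesets (77.6%). When slide was a block in a fit of all 12 arrays, 6194 probesets were higher in roots and 10661 in nodules. Roots then held 36.7% of the calls, against 48.4% without the block. The brighter the probesets, the fewer were called: in 4 groups of equal size, in order of rising signal, the shares were 60%, 49.2%, 39.5% and 34.6%.

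Detection gave a similar account. Under nitrate 31772 probesets were well above background on all arrays of both organs. A further 813 were well above background on all root arrays and on no nodule array, and 864 were so on all nodule arrays and on no root array. Without nitrate these numbers were 671 for roots alone and 1233 for nodules alone. Of the probesets read in roots alone, 474 were shared by both treatments, which is 58.3% of the nitrate set and 70.6% of the control set. Of those read in nodules alone, 517 were shared, which is 59.8% of the nitrate set but 41.9% of the control set. Such counts rest on the detection of every single array, and they were not repeated with arrays left out. The lowest shares well above background were 79.16% for roots, on control root array 2, and 79.95% for nodules, on nitrate-treated nodule array 3.

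Genes that marked an organ without nitrate still marked it 24 h after nitrate was given. The 100 probesets with the largest ratio in each direction were taken from the control arrays and then read on the nitrate arrays, which had no part in the choice. All 100 chosen for roots were called higher in roots under nitrate, 99 of them above 16-fold, with a median log2 ratio of 8.08 under nitrate and 8.40 without. Of them 48 were not well above background on any nodule array under nitrate, so the size of their ratio is only bounded. Taking no signal as lower than the lowest that the array had marked well above background, the median was 7.28 under nitrate and 7.96 without, and 97 were above 16-fold. All 100 chosen for nodules were called higher in nodules, 99 of them above 16-fold, with a median of -7.81 under nitrate and -8.58 without. With the same lower limit on signals these medians were -7.51 and -8.15, and 14 of the set were not well above background on any root array under nitrate. The fitted ratio was smaller under nitrate for 68 of the root set and 84 of the nodule set. Sets picked at an extreme tend to give smaller ratios on other arrays, so nothing is read from this.

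On the nodule arrays the median signal of the root set was 0.325%, 0.336% and 0.417% of its mean on root arrays, but only 42, 46 and 35 of the 100 probesets were well above background there, so these shares lie at background and show no order. On root arrays 1, 2 and 3 the median signal of the nodule set was 0.58%, 0.892% and 0.178% of its mean on nodule arrays, with 79, 83 and 46 of the 100 well above background. The root arrays thus differed among themselves in the low signal of nodule genes, with array 2 highest and array 3 lowest. In control roots the same share was 0.449%, 0.147% and 0.262%. The part of this signal in the results was not tested.

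**Figure D1:**
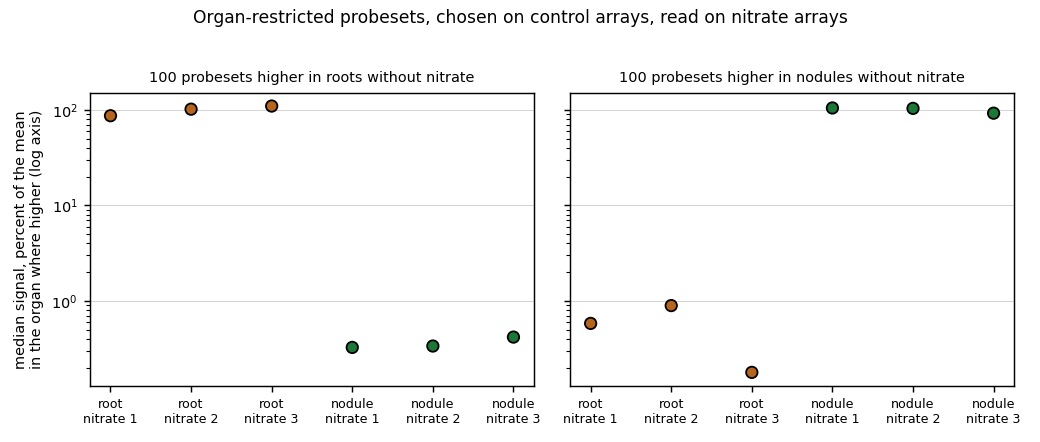
Median scaled signal of 100 probesets higher in roots and 100 probesets higher in nodules, both chosen on the control arrays, on each of the 6 nitrate arrays, as percent of the mean in the organ where they are higher (log axis). Root arrays hold 87.1% to 110% for the root set and 0.178% to 0.892% for the nodule set, and nodule arrays 0.325% to 0.417%, which lies at background, for the root set and 92.6% or more for the nodule set.

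None of the 5 probesets with the largest fitted ratio in either direction carried a description. The largest fitted ratio toward roots belonged to CX702968.1_831, with 25832, 27396 and 45568 in roots against 3.93, 1.52 and 27.3 in nodules, a log2 ratio of 12.51 ± 1.00 (SE, adjusted p = 7.2e-05). The probeset GMFL01-46-K16-R_410 followed with 30443, 28785 and 28232 in roots against 3.83, 1.64 and 25.1 in nodules. Both were well above background on 1 of the 3 nodule arrays, so their ratios are bounds: with the lower limit on signals, CX702968.1_831 had 11.47 and GMFL01-46-K16-R_410 had 11.38. At the other end, GMFL01-40-K19-R_505 had 33.1, 142 and 7.19 in roots against 46664, 43173 and 48898 in nodules, a log2 ratio of -10.48 ± 0.99 (adjusted p = 0.00015). The next was GMFL01-22-I17-R_468, with 111, 327 and 2.94 in roots and 63339, 60033 and 53850 in nodules. Both were well above background on 2 of the 3 root arrays. Each of these stood on the same side without nitrate, with control log2 ratios of 13.19, 12.06, -10.34 and -10.11. In the 2 nodule probesets, root array 3 was the lowest root array, as in the nodule set as a whole.

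Among probesets whose description names a product, an aquaporin (CD391559.1_401), a channel for water, was far higher in roots, with 31529, 44134 and 43722 in roots against 114, 148 and 195 in nodules. Its log2 ratio was 8.05 ± 0.24 (SE), adjusted p = 2.5e-06 (limma). A pectate lyase, which loosens pectin in cell walls, had 492, 648 and 709 in roots and 2.82, 3.83 and 2.27 in nodules, where it was not well above background, and was at least 73.6-fold higher in roots. A leucine-rich repeat protein (AW598384.1_293) had 2963, 3400 and 4437 in roots against 17.3, 6.48 and 6.21 in nodules, where it was well above background on 1 array. These probesets were picked on the same arrays for large ratios, so the separation of the organs in them is not a further result.

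Toward nodules, the described probesets with the largest ratios included the 3 probesets for fructose-1,6-bisphosphatase, an enzyme of sugar synthesis. The first (GMFL01-02-I21-R_101) had 11.4, 10.6 and 2.35 in roots against 1523, 1757 and 1064 in nodules, a log2 ratio of -7.75 ± 0.62, with 2 of the 3 root arrays well above background. Tyrosine aminotransferase, which opens tyrosine breakdown, had 36.2, 46.6 and 14 in roots against 4649, 3534 and 2399 in nodules, a log2 ratio of -6.89 ± 0.48. The probeset for DREB2C, a transcription factor known from dehydration responses, had 2.99, 3 and 2.74 in roots, where it was not well above background, against 591, 511 and 175 in nodules. It was at least 44.5-fold lower in roots, and nodule array 3 was the lowest of the nodule arrays. All of these were also higher in nodules without nitrate.

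Organ ratios with and without nitrate followed each other closely. Over the 35374 probesets tested in both, Pearson's r was 0.89 and Spearman's rho 0.84, across genes, which are not independent replicates. Of the probesets called higher in roots, 5510 were so in both, which is 70.8% of the nitrate list and 76% of the control list. Of those called higher in nodules, 6962 were so in both, which is 83.4% of the nitrate list and 66.6% of the control list. Without nitrate, 7380 of 36149 probesets (20.4%) were higher in roots and 10803 (29.9%) in nodules, 50.3% in all. The scaling bears on this comparison: the median log2 ratio without nitrate was -0.29 after scaling to a mean of 2500 and -0.12 after scaling to the 75th percentile, a shift of 0.17.

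The difference in the organ ratio was tested itself, as the interaction term of limma on all 12 arrays. With nitrate the organ ratio was shifted toward roots in 3402 of 36432 probesets (9.34%) and toward nodules in 1935 (5.31%), 14.6% in all. Above 4-fold the shifts numbered 912 (2.5%) toward roots and 461 (1.27%) toward nodules, 3.77% in all. The median difference of the log2 ratios was 0.15, and 0.02 after scaling to the 75th percentile. Among the 3402 shifted toward roots, the nitrate effect was called in nodules alone for 1129, in roots alone for 182, in both for 55 and in neither for 2036. Among the 1935 shifted toward nodules, it was called in nodules alone for 529, in roots alone for 369, in both for 22 and in neither for 1015. These counts depended on single arrays and on slide. Control root array 1 shared slide 1 with the nitrate-treated roots. Control root arrays 2 and 3 lay on slide 2 and the control nodule arrays on slide 3, so no slide held both organs without nitrate either. Once control root array 1 was left out, no slide held roots of both treatments, and nitrate and slide could not be told apart in roots. Without control root array 1 the shifts numbered 6150 toward roots and 2821 toward nodules, while without nitrate-treated nodule array 3, control nodule array 1 or control nodule array 2 the shifts toward roots numbered 1988, 2111 and 2124. A block for slide left 1459 toward roots and 1093 toward nodules.

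Only a small number of probesets changed sides. Of them 94 were called higher in roots under nitrate and higher in nodules without it, of which 84 had a description, and 29 went the other way, of which 19 had one. Described probesets were chosen by the study for a change by nitrate, so their share here is not read as a result. Without control root array 1 these numbers were 183 and 57, without control nodule array 1 the first was 56 and without control root array 2 it was 60.

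**Figure D2:**
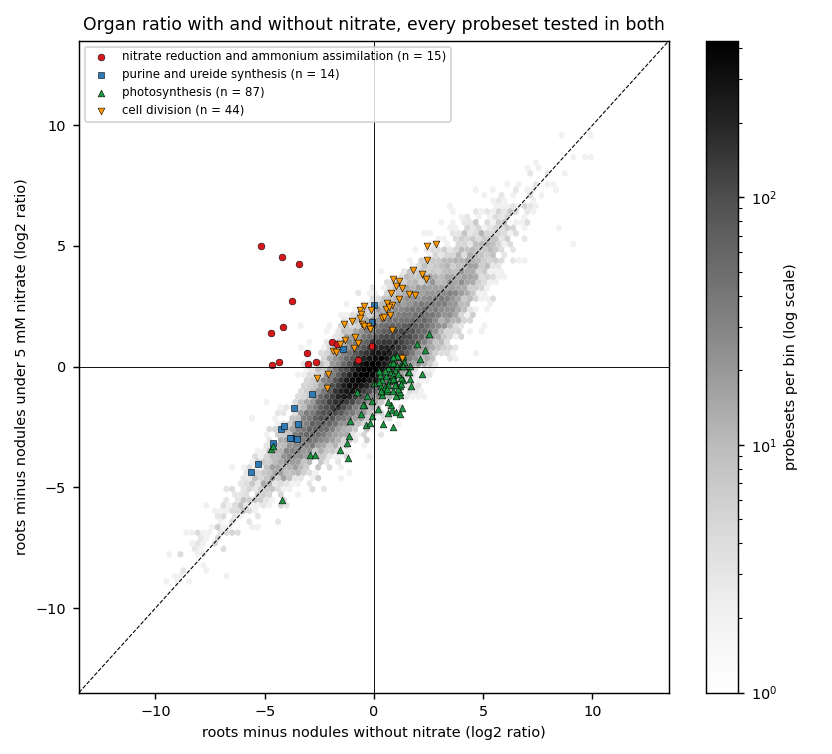
Log2 ratio of roots to nodules under 5 mM nitrate (vertical axis) against the same ratio without nitrate (horizontal axis) for the 35374 probesets tested in both, as counts per bin, with 4 gene lists drawn as points and the dashed line marking equal ratios. The 15 probesets of nitrate reduction and ammonium assimilation lie below 0 on the horizontal axis and above 0 on the vertical axis, while the 87 photosynthesis probesets lie mostly below the line and the 44 cell division probesets above it.

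The enzymes that reduce nitrate and take up the ammonium formed showed the clearest change of organ. Of their 15 probesets, under 7 descriptions, 7 were higher in roots under nitrate and none in nodules, with a median log2 ratio of 0.92. Without nitrate none was higher in roots and 13 were higher in nodules, with a median of -3.45, or -3.36 with the lower limit on signals. Among all described probesets, 41.7% were higher in roots and 19.3% in nodules under nitrate, 61% in either direction. The organ ratio of 14 of the 15 shifted toward roots, where 41.4% of all described probesets shifted that way and 25.1% toward nodules. The 7 probesets higher in roots under nitrate were all higher in nodules without it. Under a block for slide 4 of the 15 were called higher in roots and none in nodules, and the shift was called for the same number of probesets, 14.

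Nitrite reductase, which makes ammonium from nitrite in plastids, had the largest ratios of the list. Its probeset GMFL01-08-I05-R_317 had 57387, 58834 and 64402 in nitrate-treated roots against 2576, 2595 and 2607 in nitrate-treated nodules. The same probeset had 115, 96.7 and 123 in control roots against 2030, 2263 and 1981 in control nodules. The lowest root array under nitrate was thus far above every nodule array, and without nitrate every root array was far below them. The log2 ratio was 4.54 ± 0.10 (SE, adjusted p = 2e-06) under nitrate and -4.23 without. The other probesets of nitrite reductase gave 5.00 and 4.24 under nitrate. Without nitrate the first of these was not well above background in roots and was there at least 10.2-fold lower, and the other gave -3.45.

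Nitrate reductase, the first enzyme of the path, was higher in roots in all 3 of its probesets. INR1 had 73402, 82520 and 98479 in nitrate-treated roots against 27534, 24536 and 29888 in nitrate-treated nodules. Without nitrate it had 968, 3160 and 533 in control roots against 19756, 21771 and 21846 in nodules. The nodule signal of INR1 thus lay within a narrow range over both treatments, whereas the root arrays were the highest of the 4 groups under nitrate and the lowest without it. Its log2 ratio was 1.63 ± 0.15, adjusted p = 0.00014, under nitrate and -4.16 without. The probesets of BCNR-A gave 2.72 ± 0.16 (BF069531.1_458) and 1.41 ± 0.15 (BU927103.1_508) under nitrate, and -3.75 and -4.72 without. When slide was a block, INR1 had a log2 ratio of 2.12 with an adjusted p of 0.096, and BU927103.1_508 had 1.93 with 0.16. Control root array 2 stood above the other control root arrays in every nitrate reductase probeset.

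Glutamine synthetase, which joins ammonium to glutamate, was called in neither direction under nitrate. The plastid form GMFL01-06-M21-R_347 had 18801, 17747 and 21153 in nitrate-treated roots against 17488, 18990 and 18961 in nitrate-treated nodules, so the organs overlapped. In control plants it had 1052, 512 and 839 in roots and 18637, 19492 and 19910 in nodules. Its log2 ratio was 0.05 ± 0.12 (adjusted p = 0.69) under nitrate and -4.66 without, a difference of 4.71 ± 0.31, adjusted p = 4.4e-05. The 4 plastid probesets lay between 0.05 and 0.92 under nitrate, none called, and between -4.66 and -1.67 without, all called. Cytosolic GSbeta1 had 336214, 348763 and 337375 in roots against 298655, 262012 and 281797 in nodules, a ratio of 1.22-fold that was not called.

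NADH glutamate synthase, which turns glutamine back into glutamate, was uneven among its probesets. One of them (CA783200.1_620) had 3886, 2477 and 2643 in roots and 1203, 1519 and 1619 in nodules, a log2 ratio of 1.03 ± 0.21 with an adjusted p of 0.0049. This call rested close to the 2-fold limit: the ratio was 0.83 without root array 1, 0.91 without nodule array 1 and 0.36 when slide was a block. The others had 0.87 and 0.21 and were not called.

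**Figure D3:**
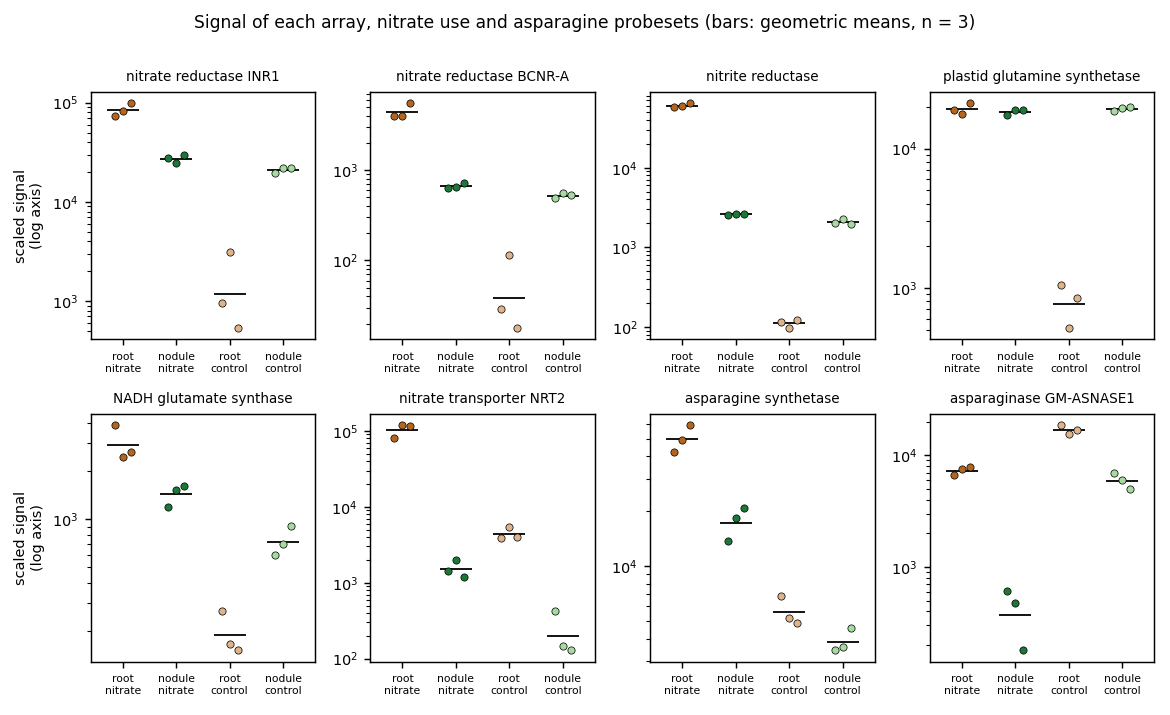
Scaled signal of each array (points; log axes that do not start at 0) and the geometric mean of 3 arrays (bars) for 8 probesets of nitrate use and asparagine metabolism, in nitrate-treated roots and nodules and in control roots and nodules. For nitrate reductase, nitrite reductase, plastid glutamine synthetase and NADH glutamate synthase the control root arrays are the lowest of the 4 groups, and under nitrate the root arrays reach or pass the nodule arrays.

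Proteins that serve nitrate reduction moved in the same direction. Of 7 probesets for cofactors, 5 (71.4%) were higher in roots and 1 (14.3%) in nodules under nitrate, against 41.7% and 19.3% of described probesets. Without nitrate none of the 6 cofactor probesets tested was higher in roots and 4 were higher in nodules. Uroporphyrin III methyltransferase, which starts the path to the siroheme of nitrite reductase, had 4567, 3746 and 2865 in roots against 963, 973 and 1441 in nodules, a log2 ratio of 1.73 ± 0.24, against -2.04 without nitrate. Ferredoxin NADP oxidoreductase, which supplies reduced ferredoxin in plastids without light, had 28033, 28059 and 29958 in roots and 8504, 8888 and 8818 in nodules, a log2 ratio of 1.71 ± 0.10, against -1.46 without nitrate. A molybdopterin biosynthesis protein, of the path to the molybdenum cofactor of nitrate reductase, was dim, with 15.7, 14.1 and 13 in roots and 2.11, 2.05 and 4.02 in nodules. It was not well above background on nodule arrays and was at least 1.72-fold higher in roots, a bound below the 2-fold limit. With normexp background correction its log2 ratio was 0.48, smaller than this bound, and the call was lost. A ferredoxin-I was the one probeset higher in nodules, with 66.6, 90.6 and 57.9 in roots against 250, 275 and 248 in nodules, and this call was lost when slide was a block (-1.05, adjusted p = 0.059).

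Nitrate carriers differed from each other. Of 10 probesets of nitrate and peptide transport, 4 (40%) were higher in roots and 1 (10%) in nodules under nitrate, where described probesets as a whole had 41.7% and 19.3%. Without nitrate the counts were 4 and 4. The high affinity nitrate transporter NRT2, which takes up nitrate at low concentration, had 80615, 117813 and 116117 in nitrate-treated roots against 1434, 2018 and 1186 in nitrate-treated nodules. In control plants it had 3906, 5362 and 4038 in roots and 419, 146 and 129 in nodules. NRT2 was thus higher in roots in both treatments, with log2 ratios of 6.10 ± 0.25 under nitrate (adjusted p = 5.2e-06) and 4.46 without. The difference of 1.63 ± 0.56 between these ratios did not pass, with an adjusted p of 0.063, but it was called with normexp background correction (1.97, adjusted p = 0.014) and without control nodule array 3 (1.95, adjusted p = 0.049).

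A peptide symporter of the family to which low affinity nitrate carriers also belong (GMFL01-14-C18-R_644) had 11884, 16534 and 23074 in roots against 309, 254 and 256 in nodules. Its organ ratio shifted toward roots, with 5.93 ± 0.25 under nitrate and 2.97 without. Another symporter of the same description (GMFL01-15-A23-F_605) had 3.41, 2.36 and 2.9 in roots and 62.5, 76.8 and 75 in nodules, at least 8.43-fold lower in roots. The nitrate and chloride transporter narrowed: CA852364.1_395 had 35.6, 40.4 and 45.7 in roots against 12.5, 15.9 and 11.8 in nodules, a log2 ratio of 1.60 ± 0.16 that was 4.05 without nitrate, and its difference of -2.45 was called. It was well above background on 2 nodule arrays under nitrate and on 1 without. With normexp background correction its log2 ratio under nitrate was 0.71 and the call was lost. NRT1-3 had 6301, 6085 and 6871 in roots against 10312, 10057 and 11864 in nodules, a log2 ratio of -0.74 that was below the 2-fold limit, and 0.72 without nitrate. The 4 probesets of the chloride channel CLC-7 family lay between -0.36 and 0.36 and were not called, while without nitrate they lay between -1.70 and -0.74.

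Asparagine synthetase, which makes asparagine from glutamine and aspartate, had log2 ratios between -0.87 and 1.52 under nitrate. Of 8 probesets, 1 (12.5%) was called higher in roots and none in nodules, against 41.7% and 19.3% of all described probesets. That probeset (GMFL01-15-J13-R_221) had 42154, 48911 and 59189 in nitrate-treated roots against 13656, 18260 and 20710 in nitrate-treated nodules, a log2 ratio of 1.52 ± 0.20 with an adjusted p of 0.00073. In control plants the same probeset had 6851, 5184 and 4848 in roots and 3447, 3590 and 4547 in nodules. The 3 AS1 probesets gave 0.58, 0.51 and -0.87, so probesets of 1 description stood on different sides. AS2 (GMFL01-14-F20-R_547) had 186841, 191999 and 214374 in roots and 122906, 106796 and 153862 in nodules, a log2 ratio of 0.64 that was not called, and its other probeset gave -0.42.

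Asparaginase, which breaks asparagine down, was higher in roots in all 4 probesets, with log2 ratios of at least 3.34. The median was 4.52, and 4.04 with the lower limit on signals. One of them (GMFL01-08-F10-R_584) had 56543, 68842 and 73782 in nitrate-treated roots against 8459, 8667 and 3795 in nitrate-treated nodules. In control plants it had 101536, 92354 and 102286 in roots and 46254, 37845 and 43152 in nodules. Every nodule array under nitrate was thus below every other array, and nodule array 3 was the lowest. The log2 ratio was 3.34 ± 0.34 (adjusted p = 0.0002) under nitrate and 1.22 without, and the difference of 2.12 ± 0.39 was called. GM-ASNASE1 (CD409922.1_668) had 6682, 7497 and 7796 in roots against 606, 475 and 179 in nodules, a log2 ratio of 4.30 ± 0.44, against 1.51 without nitrate. One further probeset (BE658128.1_628) was not well above background on any nodule array of either treatment, and was at least 15.3-fold higher in roots under nitrate and at least 65-fold without, so no change of its ratio was measured.

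The enzymes that supply carbon were divided. Of 43 probesets 42 were tested, with 16 (38.1%) higher in roots and 12 (28.6%) in nodules. All described probesets had 41.7% and 19.3%. Of the 43 carbon probesets tested without nitrate, 9 were higher in roots and 20 in nodules. A block for slide gave 9 higher in roots and 12 in nodules. Glucose-6-phosphate 1-dehydrogenase, which feeds the pentose phosphate pathway and so supplies NADPH, was higher in roots in all 4 probesets under nitrate. Its log2 ratios were then 1.06 to 2.21. Without nitrate they ran from -1.76 to 2.40 with a median of -1.44, and 1 was called higher in roots and 3 in nodules. Pyrophosphate-dependent phosphofructokinase, a glycolytic enzyme, had 761, 657 and 934 in roots against 34.6, 40.8 and 17.8 in nodules, a log2 ratio of 4.73 ± 0.33. An invertase, which splits sucrose, had 5945, 7498 and 8130 in roots and 670, 628 and 297 in nodules, a log2 ratio of 3.83 ± 0.33. Phosphoenolpyruvate carboxykinase, which makes phosphoenolpyruvate from oxaloacetate, had 647, 855 and 636 in roots and 57.3, 78.4 and 57.4 in nodules. Beta-amylase BMY1, which breaks starch down, was higher in nodules in its 3 probesets, at -2.06 to -1.60, where the ratios without nitrate were -0.53 to 0.11. The descriptions with 3 or more probesets, here and below, were picked after their values were seen.

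Purine synthesis, from which ureides are made, stood mostly on the side of nodules in both treatments. Of 15 probesets, 2 were higher in roots and 11 in nodules under nitrate, with a median log2 ratio of -2.47. Of 14 tested without nitrate, none was higher in roots and 12 were higher in nodules, with a median of -3.75. Described probesets were higher in nodules in 19.3% of cases. The counts under nitrate were also 2 and 11 when slide was a block.

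The enzyme glycinamide ribonucleotide transformylase (pur3, CX548867.1_764) had 1542, 1527 and 1369 in nitrate-treated roots against 31932, 30046 and 28397 in nitrate-treated nodules. Control roots had 1010, 382 and 640 and control nodules 29591, 32650 and 30450. Nodule arrays lay close together over both treatments, and root arrays were higher under nitrate than without it. The log2 ratio was -4.35 ± 0.11 (adjusted p = 2.2e-06) under nitrate and -5.62 without. The difference of 1.27 ± 0.38 had an adjusted p of 0.041, and it lost its call without any 1 of 11 of the 12 arrays and when slide was a block, where it was 0.67 with an adjusted p of 0.31. SAICAR synthase, a later enzyme of the same path, had 2403, 2019 and 1976 in roots against 18622, 21532 and 17749 in nodules, a log2 ratio of -3.18 ± 0.14 under nitrate and -4.60 without. Glycinamide ribonucleotide synthetase (CB556173.1_418) had 3681, 3483 and 2997 in roots and 24912, 25220 and 28441 in nodules, a log2 ratio of -2.95 ± 0.13.

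Xanthine dehydrogenase, which oxidizes xanthine to uric acid on the way to ureides, had 5551, 4005 and 3630 in roots against 31761, 35533 and 36246 in nodules. Its log2 ratio was -3.00 ± 0.18 under nitrate and -3.50 without, and the difference of 0.51 ± 0.25 was not called (adjusted p = 0.18). The probesets higher in roots were those of guanine nucleotide synthesis. GMP synthase had 1219, 1081 and 1422 in roots against 343, 417 and 272 in nodules, a log2 ratio of 1.86 ± 0.19, and guanylate kinase gave 2.56 ± 0.28. Without nitrate they had ratios of -0.11 and -0.01 and were not called. Hydroxyisourate hydrolase, which acts just after uricase, was dim and variable in roots, with 55.4, 10.3 and 2.72 in roots against 12.6, 8.75 and 15.2 in nodules, and the organs overlapped. In all, the organ ratio of 10 of the 15 probesets shifted toward roots and that of none toward nodules. With the slide as a block 3 of them shifted toward roots. Of all described probesets 41.4% shifted toward roots and 25.1% toward nodules.

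**Figure D4:**
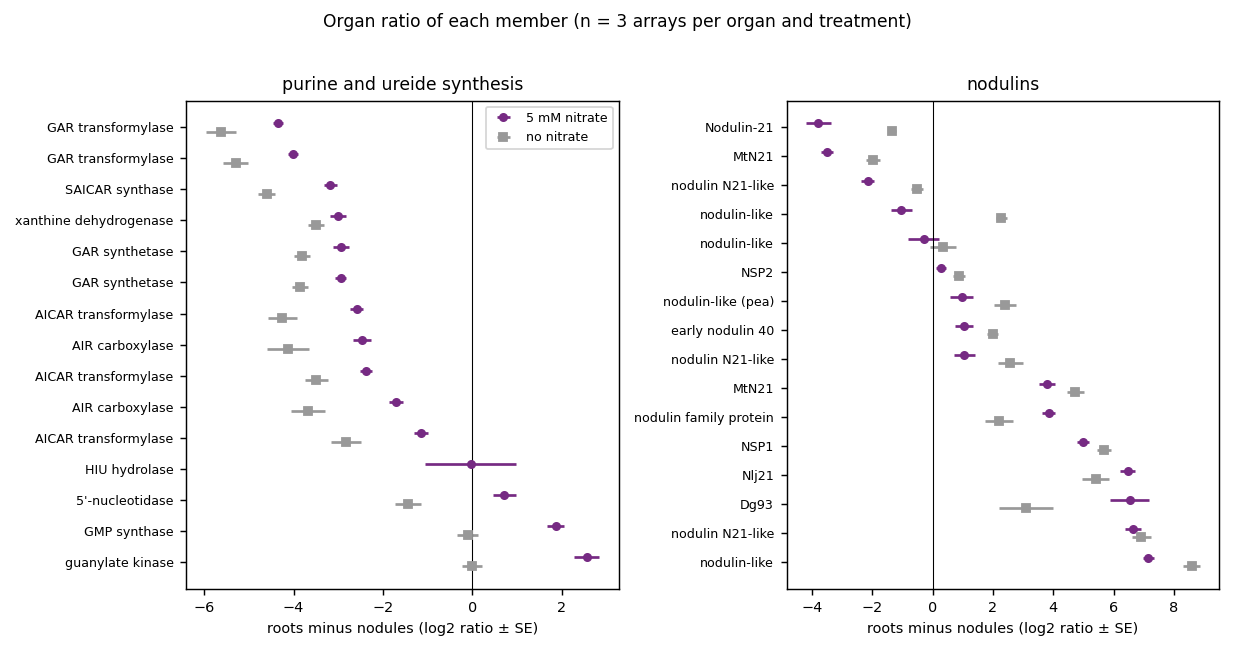
Log2 ratio of roots to nodules with its SE (3 arrays per organ and treatment) for each probeset of purine and ureide synthesis (left) and of the nodulins (right), under 5 mM nitrate and without nitrate. Under nitrate 11 of the 15 purine and ureide probesets are called below 0. Of the 16 probesets of the nodulin list, which also holds NSP1 and NSP2, 9 are called above 0 and 4 below.

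Genes named nodulins, which were first described as switched on in nodules, stood on both sides. Their list, matched by words, also holds NSP1 and NSP2, which act in the nodulation signalling path and are not nodulins. Of 16 probesets, 9 (56.2%) were higher in roots and 4 (25%) in nodules under nitrate, against 41.7% and 19.3% of all described probesets. Without nitrate the counts were 11 and 2. None of the descriptions used here held leghemoglobin, nodulin-26 or uricase, which are defining products of the nodule, so these are not analysed here. Apart from NSP1 and NSP2, the list is made of relatives found among nitrate-responsive genes. Nodulin-21, a soybean protein of the nodule, had 2521, 7830 and 4460 in nitrate-treated roots against 57307, 54365 and 73059 in nitrate-treated nodules. In control plants it had 13311, 14373 and 13976 in roots and 33681, 36492 and 35714 in nodules. The gap between organs was wider under nitrate, with a log2 ratio of -3.78 ± 0.40 (adjusted p = 0.00025) against -1.35 without. The difference was -2.43 ± 0.45 with an adjusted p of 0.0063, and -2.63 with an adjusted p of 0.052 when slide was a block. A probeset described as MtN21 of Medicago (GMFL01-30-H05-R_473) had 664, 698 and 1070 in roots and 8181, 8962 and 9532 in nodules, a log2 ratio of -3.49 ± 0.20.

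Several other probesets of the nodulin list stood on the side of roots. A nodulin-like protein (BM891732.1_494) had 4620, 4855 and 5557 in roots against 27.1, 41 and 39.4 in nodules, a log2 ratio of 7.15 ± 0.19 under nitrate and 8.58 without. The relative of Lotus Nlj21 had 235, 145 and 166 in roots and 1.87, 1.64 and 2.74 in nodules, at least 21.6-fold higher in roots. NSP1, a transcription factor of the nodulation signalling path, had 482, 520 and 681 in roots against 16.1, 15.2 and 21.5 in nodules, a log2 ratio of 4.99 ± 0.20, while NSP2 of the same path had 67, 84.2 and 86.8 in roots and 57.4, 61.6 and 79 in nodules and was not called. Early nodulin 40, a transcript of nodule formation, had 5515, 9760 and 10274 in roots against 3006, 3963 and 5336 in nodules, a log2 ratio of 1.04 ± 0.31 with an adjusted p of 0.022. Its ratio was 0.92, 0.88 and 0.84 without root array 2, root array 3 or nodule array 1 and 1.04 with an adjusted p of 0.058 without nodule array 2, and the call was lost each time. A nodulin-like protein (BE806216.1_3) had 584, 290 and 251 in roots and 917, 576 and 706 in nodules, so the arrays overlapped. Its log2 ratio of -1.04 ± 0.35 had an adjusted p of 0.033 and lost the call without root array 2 (-0.91), root array 3 (-0.81), nodule array 1 (-0.87) or nodule array 3 (-1.06), and when slide was a block (-1.07, adjusted p = 0.16). Without nitrate the same probeset was higher in roots, with a log2 ratio of 2.27.

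Photosynthesis genes were more often called higher in nodules than in roots under nitrate. Of 87 probesets, under 33 descriptions, 1 (1.15%) was higher in roots and 35 (40.2%) in nodules, while 51 were called in neither direction. Of all described probesets 41.7% were higher in roots and 19.3% in nodules. The median log2 ratio of the photosynthesis probesets was -0.78. Without nitrate 28 were higher in roots and 10 in nodules, with a median of 0.82. The organ ratio of 2 shifted toward roots and that of 59 toward nodules, where 41.4% and 25.1% of all described probesets did so. When slide was a block, however, 10 were higher in roots and 14 in nodules, and none shifted toward roots and 25 toward nodules. The median effect of nitrate on these probesets was -0.26 on the log2 scale in roots and 1.35 in nodules. Roots and nodules had grown in bottles covered with foil.

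The 11 probesets of the chlorophyll a/b-binding protein cab3, which harvests light, lay between -2.49 and -0.23 under nitrate and between 0.43 and 2.22 without. Of these, 6 were called higher in nodules under nitrate and 7 higher in roots without it. Rubisco activase, which keeps the carbon-fixing enzyme Rubisco active, had 138, 101 and 112 in roots against 1405, 1394 and 1581 in nodules, a log2 ratio of -3.65 ± 0.15 that was -2.92 without nitrate. A probeset described as a relative of a chlorophyll-binding protein (BQ299288.1_373) had 14.2, 9.89 and 11.3 in roots against 475, 498 and 633 in nodules, a log2 ratio of -5.51 ± 0.18, with 1 of the 3 root arrays well above background. The one probeset higher in roots was PSI-N, a subunit of photosystem I, with 8975, 9476 and 8881 in roots and 2992, 3128 and 4658 in nodules. The 8 probesets of rbcS1, a small subunit of Rubisco, lay between -0.58 and 0.46 under nitrate, and none was called.

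Genes of ribosomes and the nucleolus were more often called higher in roots than in nodules under nitrate. Of 74 probesets 38 (51.4%) were higher in roots and 1 (1.35%) in nodules, with a median log2 ratio of 1.03. Of all described probesets 41.7% and 19.3% were so. Without nitrate 2 of 73 were higher in roots and 27 in nodules, with a median of -0.76. The organ ratio of 71 shifted toward roots and that of 1 toward nodules, where 41.4% and 25.1% of all described probesets did so. Under a block for slide, 19 were higher in roots and 7 in nodules, and 43 shifted toward roots and none toward nodules. The median effect of nitrate was 1.21 on the log2 scale in roots and -0.55 in nodules. Among them, a histone deacetylase of the nucleolus, HD2-P39 (GMFL01-32-I06-R_443), had 7512, 5574 and 7312 in roots against 1294, 1280 and 702 in nodules, a log2 ratio of 2.68 ± 0.27 that was -0.26 without nitrate. The 3 probesets of fibrillarin, which modifies ribosomal RNA, lay between 2.02 and 2.42 under nitrate and between -0.50 and 0.32 without. A ribosomal protein related to RS17 of fission yeast (GMFL01-44-P16-R_201) had the largest ratio of the list, with 3515, 3966 and 5117 in roots and 296, 262 and 184 in nodules. The single exception, a 40S ribosomal protein S4 (CO982857.1_579), had 6.62, 7.92 and 8.61 in roots, not well above background, against 42.7, 41.2 and 27.6 in nodules, at least 4.32-fold lower in roots. With normexp background correction its log2 ratio was -0.64, smaller than this bound, and the call was lost.

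Cell division genes stood mostly on the side of roots under nitrate. Of 44 probesets 35 (79.5%) were higher in roots and none in nodules under nitrate, with a median log2 ratio of 2.14. Of all described probesets 41.7% and 19.3% were so. Without nitrate the counts for cell division were 11 and 6 and the median was 0.41. The organ ratio of 40 shifted toward roots, where 41.4% of all described probesets did so. Under a block for slide, 22 were higher in roots and 1 in nodules, and 11 shifted toward roots, while without control nodule array 2 the shifts numbered 25. The median effect of nitrate was 0.55 on the log2 scale in roots and -1.48 in nodules. Histone H2B1 (CA936078.1_452), a protein around which DNA is wound, had 887, 1056 and 1421 in nitrate-treated roots against 57, 62.5 and 38.3 in nitrate-treated nodules, a log2 ratio of 4.42 ± 0.25. Control roots had 941, 680 and 955 and control nodules 170, 187 and 126, a ratio of 2.42. The root arrays of both treatments thus overlapped in H2B1, and the nodule arrays did not. A mitotic checkpoint kinase, which delays chromosome separation, had 471, 484 and 609 in roots and 15.2, 18.9 and 14.5 in nodules, a log2 ratio of 5.01 ± 0.16 against 2.43 without nitrate. The 5 kinesin-like probesets, motors of the spindle and of transport, lay between 0.97 and 3.53 under nitrate, 4 of them called.

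**Figure D5:**
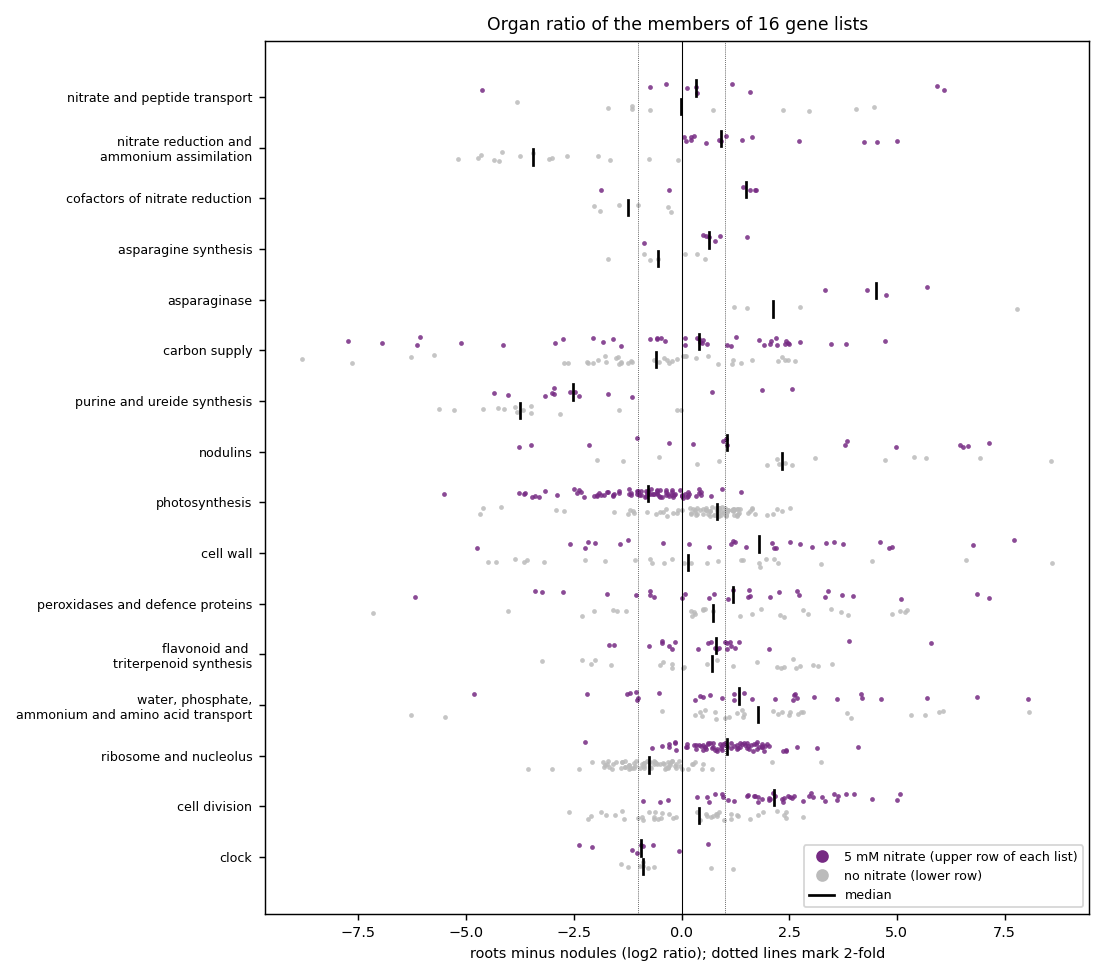
Log2 ratio of roots to nodules of the members of 16 gene lists that were tested both with and without nitrate, under 5 mM nitrate (upper row of each list) and without nitrate (lower row), with the median of each row; dotted lines mark 2-fold. Nitrate reduction and ammonium assimilation, ribosome and nucleolus, and cell division lie further toward roots under nitrate than without it, and photosynthesis lies further toward nodules.

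Of 29 cell wall probesets 28 were tested under nitrate, 17 (60.7%) higher in roots and 7 (25%) in nodules, both above the 41.7% and 19.3% of all described probesets. Without nitrate the counts were 10 and 10. The organ ratio of 16 shifted toward roots and of 2 toward nodules, but shifts toward roots numbered 8 without nitrate-treated root array 3, control nodule array 2 or control nodule array 3, and 9 without control nodule array 1. An extensin-like protein, a structural protein of the wall, had 4301, 4986 and 6953 in roots against 35.5, 69.3 and 46.5 in nodules, a log2 ratio of 6.77 ± 0.29 that was 8.60 without nitrate. Alpha-expansin, which loosens the wall, had 377, 396 and 377 in roots and 14.5, 15.3 and 9.87 in nodules, a log2 ratio of 4.89 ± 0.19 that was 1.96 without nitrate. A proline-rich protein (GMFL01-29-C07-R_220) was higher in nodules, with 22.8, 43.2 and 61.6 in roots against 469, 355 and 79.1 in nodules, a log2 ratio of -2.59 ± 0.72. Nodule array 3 was far below the others there, and the adjusted p was 0.05, 0.052 and 0.055 without root array 1, nodule array 1 or nodule array 2. The number of wall probesets higher in nodules was 4 without any 1 of these 3 arrays.

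Peroxidases and defence proteins, of which 30 of 31 were tested, were higher in roots in 15 cases (50%) and in nodules in 7 (23.3%), where all described probesets had 41.7% and 19.3%. A probeset related to a Lotus peroxidase (BI970840.1_579) had 978, 608 and 523 in roots against 6.62, 3.86 and 4.23 in nodules and was at least 81.8-fold higher in roots. The relative of pea peroxidase PsPOX11 stood at the other end, with 18.3, 8.67 and 12.9 in roots and 1420, 1278 and 434 in nodules, a log2 ratio of -6.19 ± 0.51, with 1 of the 3 root arrays well above background. PR1a, a protein induced by pathogens, had 404, 937 and 938 in roots against 10134, 6451 and 6479 in nodules, a log2 ratio of -3.41 ± 0.38. A thaumatin-like pathogenesis-related protein had 4785, 7983 and 10123 in roots and 286, 230 and 144 in nodules, a log2 ratio of 5.10 ± 0.36 that was 0.50, not called, without nitrate.

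Enzymes of flavonoid and triterpenoid synthesis were tested in 24 of 26 probesets, with 9 higher in roots (37.5%) and 2 in nodules (8.33%), both below the 41.7% and 19.3% of all described probesets. Without nitrate the counts were 12 and 6. Chalcone synthase, which opens flavonoid synthesis, had 1853, 1841 and 2301 in roots against 563, 495 and 405 in nodules, a log2 ratio of 2.04 ± 0.17 that was 1.76 without nitrate. The 3 probesets of daidzein 7-O-methyltransferase lay at -0.29 to -0.15 under nitrate, none called, and at 2.38 to 2.66 without. Beta-amyrin synthase AMS1, of triterpenoid synthesis, lay at 0.61 to 1.13 under nitrate, where none of its 3 probesets was called, and at -2.10 to -1.64 without.

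Of 31 probesets of channels and carriers for water and nutrients other than nitrate, 30 were tested under nitrate, 16 (53.3%) higher in roots and 7 (23.3%) in nodules, against 41.7% and 19.3% of all described probesets. The counts were 21 and 2 without nitrate, and 16 and 2 under nitrate when slide was a block. An ammonia permease had 1079, 1856 and 1893 in roots against 24.6, 38.8 and 27.4 in nodules, a log2 ratio of 5.71 ± 0.28 and 6.06 without nitrate. An amino acid transporter (GMFL01-17-K17-R_508) had 2.34, 4.25 and 2.46 in roots against 93.1, 102 and 56.9 in nodules. It was not well above background in roots and was at least 9.64-fold lower there. Of the 10 probesets described as amino acid transporters, however, 6 were higher in roots and 2 in nodules, with a median log2 ratio of 1.92. An aquaporin (BM885167.1_466) was higher in nodules, with 29.5, 25.7 and 26.6 in roots and 212, 185 and 48.9 in nodules, a log2 ratio of -2.19 ± 0.55 that was -5.48 without nitrate. Nodule array 3 was again the lowest nodule array there. A phosphate transporter (GMFL01-28-L18-R_260) had 6979, 9131 and 9963 in roots and 17872, 22197 and 22214 in nodules, a log2 ratio of -1.26 ± 0.18, with 0.79, not called, without nitrate. When slide was a block its ratio was -0.81, below the 2-fold limit.

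The clock gene LHY, a Myb factor that peaks around dawn, was higher in roots in none of 9 probesets and in nodules in 4 (44.4%), with a median log2 ratio of -0.93. Of all described probesets 41.7% were higher in roots and 19.3% in nodules. The 9 probesets carried 2 descriptions, LHY of bean for 8 of them and a soybean LHY-like protein for 1. One of the 4 (GMFL01-39-G01-R_264) had 472, 315 and 304 in roots against 1851, 1860 and 1908 in nodules, a log2 ratio of -2.39 ± 0.19 that was -1.40 without nitrate. The organ ratio of no LHY probeset was called as shifted by nitrate, but 2 were called as shifted toward nodules after scaling to the 75th percentile, 3 after quantile normalization and 1 when slide was a block. The count higher in nodules was 2 without root array 2 and 8 when slide was a block. The time of day at harvest was not given in the sources used here.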

How the data were processed

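The authors deposited 1 table per array, whose intensity column used here is the processed signal of Agilent Feature Extraction, which had adjusted spots for background within the array. The labels give its version as 9.5.1 and the file headers as 10.5.1.1. No scaling between arrays had been done, and the series' value table held the same intensity values (512976 of 512976 equal). Here each array was brought to a mean of 2500 over 42748 probesets (multiplied by 0.5443 to 0.9222) before log2 values were taken; 106 spots marked as outliers were left out, and none was saturated. Groups and replicate numbers came from the sample titles. For control root array 1 the title and the source name gave different replicate numbers, and the title was used.

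Organs were compared with limma 3.58.1 (lmFit, eBayes) in R 4.3.3, on the 6 nitrate arrays, on the 6 control arrays, and, for the difference of the ratios, on all 12 arrays. The script was tested on simulated data. Where a probeset was well above background on no array of the dimmer organ, the fold is a lower bound: the mean of the brighter organ against, per array of the other, its own signal or, where higher, the lowest signal of any probeset marked well above background. Tables and plots used Python 3.11.15, numpy 2.4.6, pandas 2.3.3 and matplotlib 3.10.9. Replicates were separate pools of plants; the sources do not say that equal numbers in roots and nodules mark the same plants.

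Members and lists were chosen with earlier results of these data known. The 16 lists (449 probesets) were made by words in the descriptions of 4 lists of the study, whose fold changes and p-values were not used; 1 word of the clock list was narrowed after it had matched an unrelated enzyme. No sequence identifier matched the gene table at hand, so gene names, positions and sequences beyond these descriptions are not given. Named were any probesets of nitrate and peptide transport, nitrate reduction and ammonium assimilation, asparagine synthesis, asparaginase, purine and ureide synthesis and the nodulins, up to 3 called with the largest ratio per direction from other lists, and the 5 with the largest ratio or difference per direction, over all and over those whose description names a product. Alternatives were other scalings, background corrections, filters, limits and tests, the replicate number or slide as a block, and each array left out. Those for the shift of lists and named probesets, for the lists under the slide block and for changes of side, and the lower limit on signals near background, were added after the data were seen.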

Additional observations from a re-analysis of the deposited data

Results flagged for a closer look

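The 17 named probesets flagged here had organ ratios under nitrate that differed from those without, by the interaction term of limma on 12 arrays. Other named probesets with called differences are given above. Differences are log2 ratios under nitrate minus those without. Nitrite reductase had fitted differences of 10.20, 8.77 and 7.69 in its 3 probesets, the first of which lay at background in control roots, so that its difference was at least 8.36, and nitrate reductase BCNR-A had 6.47 and 6.13. A probeset with no description had 9.32, with 42499, 58681 and 96786 in nitrate-treated roots against 3602, 2697 and 2001 in nitrate-treated nodules, and 140, 111 and 156 in control roots against 3332, 4252 and 3611 in control nodules. Its groups were ordered like those of nitrite reductase, with control roots lowest and nitrate-treated roots highest. A probeset whose description names no plant gene (BG650957.1_283) had 8.58, with 8099, 5757 and 7861 in nitrate-treated roots against 804, 723 and 562 in nitrate-treated nodules. A transcript known from water-stressed tissue (CX709979.1_481) had a fitted difference of 9.18, which counts only as at least 7.81, with 849, 1036 and 1686 in nitrate-treated roots against 4.91, 2.01 and 3.32 in nitrate-treated nodules, where it was not well above background, and 147, 99.2 and 319 in control roots against 512, 194 and 202 in control nodules.

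Toward nodules, an aspartyl protease, an enzyme that cuts proteins, had a fitted difference of -4.89, with 2.07, 2.17 and 2.64 in nitrate-treated roots against 113, 172 and 205 in nitrate-treated nodules. It was not well above background in nitrate-treated roots, where it was at least 18.8-fold lower than in nitrate-treated nodules, nor in control roots, and passed that mark on 1 of the 3 control nodule arrays, so the size of the difference was not measured. The desiccation-related protein PCC13-62 had a fitted difference of -4.21 and lipoxygenase-1, which oxidizes fatty acids, -3.78. Neither was well above background in nitrate-treated roots, where PCC13-62 was at least 14.7-fold and lipoxygenase-1 at least 15.2-fold lower than in nitrate-treated nodules. The stem-specific protein TSJT1 had -3.95. When slide was a block, the adjusted p was 0.057 for PCC13-62 and 0.088 for TSJT1. An ethylene-responsive factor had -3.87, with 126, 139 and 257 in nitrate-treated roots against 162, 211 and 210 in nitrate-treated nodules, which overlapped, and 2587, 1805 and 3474 in control roots against 276, 133 and 223 in control nodules. The probesets with no description had fitted differences of -5.00, -4.75, -4.72 and -4.49. With no signal taken as lower than the lowest that its array had marked well above background, the differences of the first, the second and the third of these were -4.43, -1.97 and -3.11. Under a block for slide the first, the third and the last had differences of -4.75, -2.06 and -4.26 (adjusted p = 0.053, 0.23 and 0.11). The third also lost its call without nitrate-treated root array 2 or 3, control nodule array 2 or 3, or nitrate-treated nodule array 1. No group had over 3 arrays, so no array was tested as an outlier.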

How the results depend on the processing

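Under nitrate, both counts of calls stayed within 1.5 times under every alternative except the 4-fold limit, and no called ratio or difference of a named probeset changed sign. Calls were more numerous in nodules, but more numerous in roots after scaling to the 75th percentile (8203 and 8157), with normexp background correction (6624 and 6029) and without root array 2 (7995 and 7790), root array 3 (8035 and 7994) or nodule array 2 (8131 and 8081). The median difference of the organ ratios was -0.01 after quantile normalization and -0.04 with the slide as a fixed block. Above 4-fold the counts for roots and nodules were 3949 and 3873 under nitrate, 3995 and 4832 without, and 912 and 461 for the shift of the ratio. Leaving out 1 array gave 7619 to 8131 probesets in roots and 7790 to 9331 in nodules under nitrate, 6993 to 8117 and 9326 to 12076 without, 1988 to 6150 shifts toward roots and 1376 to 2821 toward nodules, and medians of -0.11 to -0.04 under nitrate. The median was -0.04 after scaling to the 75th percentile and -0.03 with no filter. Changes of side to roots and to nodules numbered 55 and 10 with normexp background correction, 51 and 16 with the slide as a fixed block, 43 and 16 with it as a random block, and 56 to 183 and 21 to 57 with 1 array left out. With the slide as a fixed block the shifts numbered 1459 and 1093, and 12 of the named probesets lost their call under nitrate. Normexp background correction also cost 12 named probesets this call. The methods' t-test cost 9, or 10 after adjustment, and leaving out 1 array cost at most 6, without root array 2. At an unadjusted p, 4793 and 2532 shifts were counted. The methods' t-test called 7561 and 8092 under nitrate, and 7366 and 7962 after Benjamini-Hochberg adjustment. No pairing by replicate number was seen: deviations from group means of same-numbered root and nodule arrays correlated at -0.06, -0.07 and -0.19. Those of other pairs correlated at -0.12 to 0.16. With 3 arrays per organ these values depend on each other, so they cannot show whether the pools were paired. With the replicate block 7914 and 8455 probesets were called under nitrate, and 2 named probesets lost their call. The causes of these differences were not tested. The 3 arrays per organ limit the precision, and probesets near background carry the largest errors: the median SE of the log2 ratio was 0.24 in the dimmest of 4 equal groups of probesets and 0.14 in the brightest.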
